A study of Mus musculus with 10 samples.

Results

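Hypoxia response genes were followed in pancreatic islets of mice heterozygous for Men1 and of wildtype littermates. The set held 10 genes chosen by name, Hif1a, Egln1, Egln3, Adm, Slc2a1, Bnip3, Ankrd37, Car9, Ndrg1 and P4ha1, and every probe set that the platform annotation gives these symbols, 23 of 45037 without controls. The genotypes were compared at 17 of these, from 9 genes, whose log2 values exceeded 4 in 5 or more mice. Egln3 had no probe set above that value.

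The first group was 5 female mice heterozygous for Men1, the gene of the tumour suppressor menin, and the other was 5 female wildtype littermates. All 10 mice were 5 weeks old, untreated, and of the strain labelled C57 on a 129 background. The labels used here do not name the kind of Men1 allele. About 100 islets per mouse gave 1 RNA sample, and 100 ng of it, amplified over 2 cycles, was run on 1 Affymetrix array per mouse. Each replicate is thus an animal of its own.

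Cells sense oxygen through prolyl hydroxylases, which mark the alpha subunits of hypoxia-inducible factors (HIF) for destruction by the von Hippel-Lindau ubiquitin ligase. When oxygen is short the alpha subunit escapes, pairs with Arnt and binds a short DNA element with the core ACGTG or GCGTG near genes of glucose uptake, glycolysis, pH control, mitophagy, vessel tone and collagen folding. Much of this control acts on the HIF protein and not on its transcript, and arrays measure transcripts. Islets are densely supplied with blood in the animal and lose that supply when they are isolated.

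Both forms of the core element were searched on both strands in windows from 250 bases before to 50 after a transcript's start (RefSeq, GRCm38.p6). For Hif1a, Ankrd37 and P4ha1 that start lies inside the annotated gene, and for the other 6 it is the gene's own 5′ edge. The table of windows held 9 of the 10 genes, all but Ndrg1. Of these 9, 8 held ACGTG and 9 held at least 1 of the 2 forms, where 19.6% of all 32851 windows of this length hold ACGTG and 43.8% hold either. Among the 11079 windows of genes tested on these arrays the shares are 25.6% and 61.9%. Most of the 10 genes are known HIF targets, so this share is not independent of how they were chosen. The 250 bases before the start are shown for the gene with the widest difference (Adm), a gene whose 2 highest values were heterozygous (Slc2a1), and 2 genes with contrasting numbers of matches (Bnip3 and Car9). Capitals mark ACGTG and GCGTG as read on either strand, where CACGT and CACGC are their reverse complements.
Adm, chr7:110627407-110627656, plus strand: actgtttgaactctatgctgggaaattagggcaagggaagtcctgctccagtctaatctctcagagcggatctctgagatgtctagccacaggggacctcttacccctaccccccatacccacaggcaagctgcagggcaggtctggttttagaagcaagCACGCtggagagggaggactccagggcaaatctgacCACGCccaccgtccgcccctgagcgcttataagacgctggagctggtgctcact
Slc2a1, chr4:119108495-119108744, plus strand: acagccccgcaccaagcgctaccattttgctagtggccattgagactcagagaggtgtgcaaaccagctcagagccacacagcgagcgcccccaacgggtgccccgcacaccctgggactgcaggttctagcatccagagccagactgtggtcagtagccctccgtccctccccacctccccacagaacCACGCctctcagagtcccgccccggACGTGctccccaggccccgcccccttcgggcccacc
Bnip3, chr7:138909507-138909756, minus strand: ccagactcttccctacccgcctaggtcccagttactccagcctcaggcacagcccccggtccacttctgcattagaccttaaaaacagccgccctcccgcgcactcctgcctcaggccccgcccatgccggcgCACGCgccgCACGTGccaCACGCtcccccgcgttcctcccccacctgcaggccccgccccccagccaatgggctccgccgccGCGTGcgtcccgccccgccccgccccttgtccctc
Car9, chr4:43506776-43507025, plus strand: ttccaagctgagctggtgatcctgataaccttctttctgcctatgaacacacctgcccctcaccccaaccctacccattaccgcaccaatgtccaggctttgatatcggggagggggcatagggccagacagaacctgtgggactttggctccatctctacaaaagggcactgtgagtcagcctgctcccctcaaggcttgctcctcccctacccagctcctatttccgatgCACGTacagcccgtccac

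The Adm stretch held GCGTG at 90 and 54 bases before the start, both on the opposite strand, and no ACGTG. The Slc2a1 stretch held ACGTG at 36 bases before the start and GCGTG on the opposite strand at 61. The Bnip3 stretch held 5 matches, of which ACGTG at 107 and at 108, on opposite strands, overlap in the palindrome CACGTG, also an E-box. The Car9 stretch held a single match, ACGTG on the opposite strand at 18 bases before the start. Distances count to the first base of the match on the gene's own strand. A match is a run of letters, and binding was not measured.

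Levels are given on the log2 scale of the deposited values, as means ± SD with n = 5 per genotype unless values of single mice are given. A difference is heterozygous minus wildtype, SE is its standard error, and p-values are from limma fitted over all 18567 probe sets kept. The 95% intervals are from the same fit. With limma, 0 of the 17 probe sets passed an adjusted p of 0.05, where 0% of all probe sets did, and the lowest adjusted p among them was 0.9999. At an unadjusted p under 0.05 there was 1 of 17, against 4.09% of all probe sets, which is about the number that this share gives. It was that of Adm, which entered the test through its wildtype values. The genotypes did not overlap in 0 of 17, against 0.700% of all. Taking each gene at its brightest probe set on average, 5 of the 9 genes had a higher mean in heterozygous islets and 4 a lower one, against 54.4% higher among 10538 genes, and the median difference was 0.08 against 0.01.

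Array medians ran from 3.28 to 3.40. The labelled tissue bore its markers, with 8 beta cell genes at 12.61 ± 0.29 in heterozygous and 12.62 ± 0.28 in wildtype islets. The 9 acinar genes tested stood at 15.97 ± 0.18 and 16.05 ± 0.16, from 15.69 to 16.31 by mouse. The samples thus held much acinar RNA beside that of islet cells. The lists hold different genes, so their means do not compare the amounts of acinar and beta cells. Of 3 Men1 probe sets 1 lay above background, and it averaged 6.42 ± 0.30 in heterozygous mice and 6.89 ± 0.39 in wildtype mice (-0.47, SE 0.20, limma adjusted p = 0.9999). The labels do not say whether its probes lie in a deleted part. Markers of other cells differed in mean, with 12 of 12 stromal genes lower in heterozygous islets (list mean 9.62 ± 0.61, 9.03 to 10.6 by mouse, against 10.32 ± 0.30, 9.91 to 10.7, in wildtype). Of 11 endothelial genes tested 10 were lower in heterozygous islets (7.61 ± 0.21, 7.33 to 7.85, against 7.90 ± 0.21, 7.66 to 8.19, in wildtype). Lower means were also counted in 4 of 4 alpha cell, 8 of 9 acinar, 6 of 7 duct and 7 of 8 myeloid genes. Median differences were -0.72 for stromal, -0.25 endothelial, -0.16 alpha cell, -0.02 acinar, -0.10 duct and -0.30 myeloid genes. Higher means were counted in all 4 lymphocyte genes tested, of 10 named. Their list mean was 6.35 and 6.10 in heterozygous replicates 2 and 5, and 4.56 to 4.76 in the others. In wildtype mice it ran from 4.61 to 5.46. No marker of any list passed an adjusted limma p of 0.05, and an unadjusted p under 0.05, which 4.09% of all probe sets had, was found for 7 stromal, 2 endothelial, 2 myeloid and 1 alpha cell gene and for 0 beta cell, acinar, duct and lymphocyte genes. At 1 of the 8 myeloid genes tested the genotypes did not overlap, against 0.700% of all probe sets. All markers counted here lay above 4 in 5 or more mice. In whole islets, fewer cells of a type and less RNA per cell cannot be told apart.

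**Figure D1:**
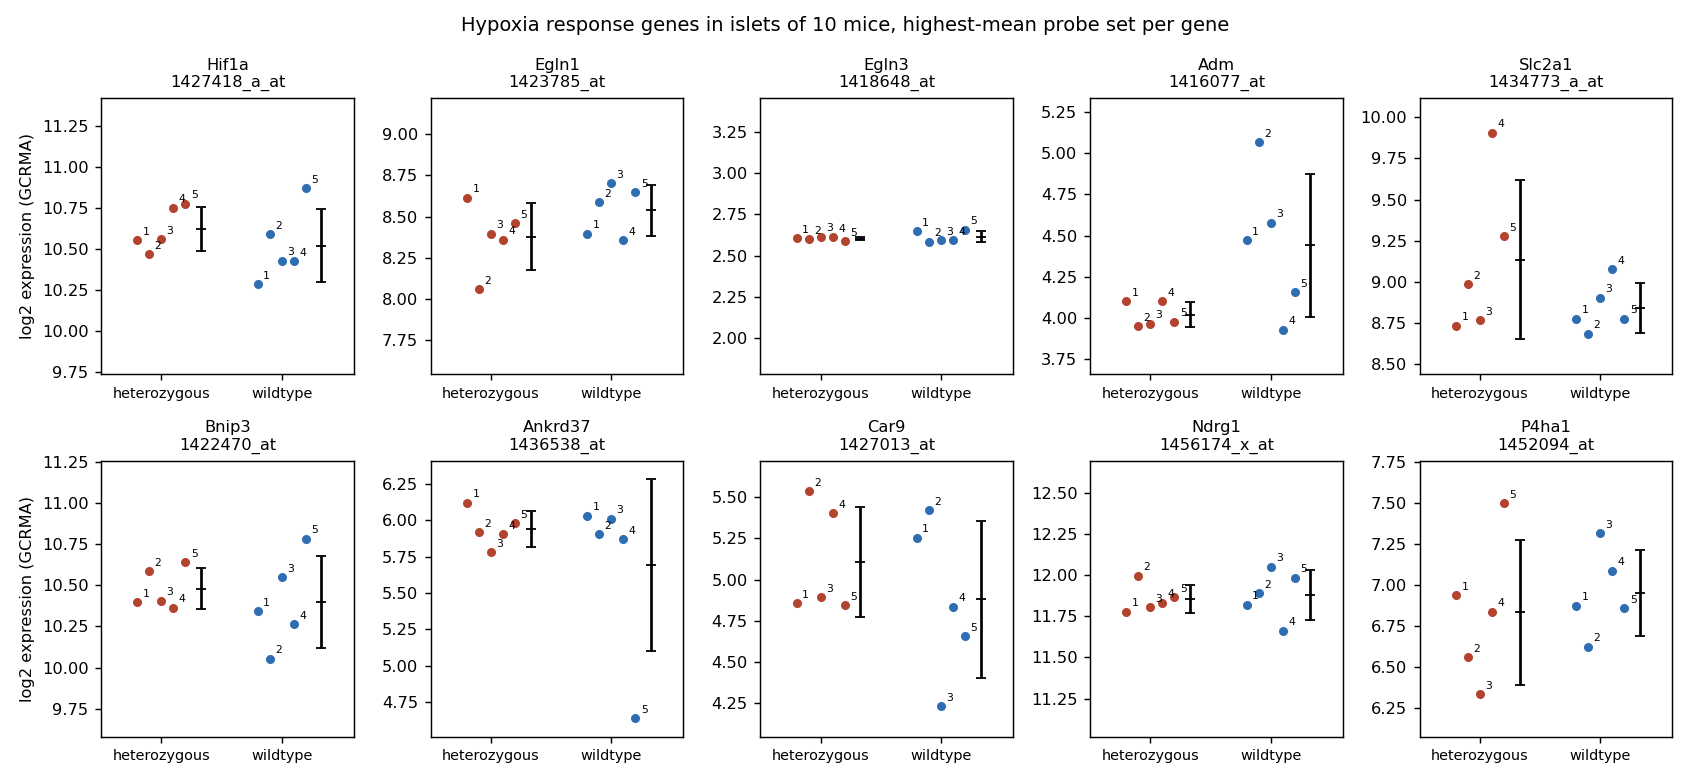
Log2 expression (y axis, a scale of its own in each panel) of the 10 hypoxia response genes at the probe set with the highest mean, by genotype (x axis). Points are mice, numbered by replicate, and the bar at the right of each group is its mean ± SD (n = 5). Every panel shows overlapping groups. The highest Slc2a1 value is that of heterozygous replicate 4 (9.91), and the lowest Ankrd37 value that of wildtype replicate 5 (4.64).

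Hif1a encodes the oxygen-regulated subunit HIF-1 alpha. Its brightest probe set, 1427418_a_at, read 10.56, 10.47, 10.56, 10.75 and 10.78 in the heterozygous mice, against 10.29, 10.59, 10.43, 10.43 and 10.87 in the wildtype mice. The groups overlapped, with the highest and the lowest mouse both wildtype. The means were 10.62 ± 0.13 in heterozygous and 10.52 ± 0.22 in wildtype islets, a difference of 0.10 (SE 0.12, 95% interval -0.17 to 0.37), and an exact two-sided permutation test over the 252 assignments gave p = 0.373. The interval covers changes between 0.891-fold and 1.29-fold. Without wildtype replicate 1 the difference was 0.04, and without wildtype replicate 5 it was 0.19.

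At another Hif1a probe set, 1416035_at, the mean was 7.48 ± 0.46 for heterozygous and 7.21 ± 0.39 for wildtype islets (0.27, SE 0.24). The probe set 1448183_a_at was dim in most mice and high in 1 mouse of each genotype. It read 4.01, 4.01, 4.60, 3.94 and 5.32 in the heterozygous mice, against 4.10, 3.58, 3.98, 3.96 and 5.81 in the wildtype mice. Heterozygous replicate 5 and wildtype replicate 5 were thus the 2 highest, and they were also the 2 highest at 1427418_a_at. The difference at 1448183_a_at was 0.09 (SE 0.41). The last one, 1431981_at, stayed between 2.07 and 2.15 on all arrays and was not tested.

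The prolyl hydroxylases Egln1 (PHD2) and Egln3 (PHD3) mark HIF alpha for destruction, and both genes are themselves HIF targets. Egln1 at 1423785_at read 8.61, 8.06, 8.39, 8.36 and 8.46 in heterozygous mice, against 8.39, 8.59, 8.70, 8.36 and 8.65 in wildtype mice. Heterozygous replicate 2 was the lowest of the 10, and 4 of the 5 heterozygous mice lay below the wildtype mean. The difference was -0.16 (SE 0.12, 95% interval -0.42 to 0.10, exact permutation p = 0.238), and -0.08 without heterozygous replicate 2. The other Egln1 probe set passed 4 on 1 array of 10 and was not tested.

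Egln3 lay at background on all arrays. Its 2 probe sets read 2.59 to 2.61 and 2.27 to 2.33 in heterozygous mice, against 2.58 to 2.66 and 2.26 to 2.38 in wildtype mice. Such values are near the floor that the background adjustment gives, and neither the presence nor a change of this transcript can be read from them.

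Adm encodes adrenomedullin, a peptide that widens vessels and is induced by low oxygen in many cells. Its probe set 1416077_at read 4.10, 3.95, 3.96, 4.10 and 3.98 in heterozygous mice, against 4.47, 5.07, 4.58, 3.93 and 4.16 in wildtype mice. The heterozygous values sat close together near 4, the wildtype values spread over more than a log2 unit, and wildtype replicate 4 was below all of the heterozygous mice. Only 6 of the 10 values passed 4, 2 of them heterozygous and 4 wildtype, so that the probe set entered the test through the wildtype mice, where it was higher. The means were 4.02 ± 0.075 for heterozygous islets and 4.44 ± 0.44 for wildtype islets, a difference of -0.42 (SE 0.18, 95% interval -0.83 to -0.02).

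The unadjusted limma p was 0.0420, the adjusted p 0.9999 and the exact permutation p 0.0556, each for a probe set that would not have been tested without its wildtype values. With 3 of the 5 heterozygous values under 4, no fold is given. All 5 heterozygous mice lay below the wildtype mean. Without wildtype replicate 2 the difference was -0.27. With the stromal list mean as a covariate it was -0.29, and with the endothelial list mean -0.22 (limma, adjusted p = 1 and 0.985, against unadjusted values of 0.251 and 0.344). The other Adm probe set, 1447839_x_at, stayed between 3.42 and 3.53 in all mice.

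Slc2a1 encodes GLUT1, a glucose carrier of many cell types and a HIF target, whereas mouse beta cells mainly use GLUT2. At 1434773_a_at it read 8.73, 8.99, 8.77, 9.91 and 9.28 in heterozygous mice, against 8.77, 8.68, 8.90, 9.08 and 8.78 in wildtype mice. Heterozygous replicates 4 and 5 were above every wildtype mouse, and the other 3 lay within the wildtype range. The means were 9.13 ± 0.48 in heterozygous and 8.84 ± 0.15 in wildtype islets, a difference of 0.29 (SE 0.21, 95% interval -0.17 to 0.75, exact permutation p = 0.254). Without heterozygous replicate 4 it was 0.10.

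Heterozygous replicate 4 also had the highest stromal list mean of its group, 10.61, where the other heterozygous mice had 9.24, 9.52, 9.03 and 9.71 and the wildtype mice 10.16, 10.69, 10.35, 10.48 and 9.91. With that list mean as a covariate the Slc2a1 difference was 0.73 (limma, adjusted p = 1, against an unadjusted value of 0.00128), and with the endothelial list mean it was 0.59 (adjusted p = 0.932, against an unadjusted value of 0.0272). With the acinar list mean it was 0.23, and with the gap between 3' and 5' control probe sets, a sign of RNA length, 0.18. The size of the Slc2a1 difference thus depended on the covariate, and no fit passed the threshold. The stromal and endothelial list means were themselves lower in heterozygous islets, so those fits cannot fully part them from genotype. At 1426599_a_at heterozygous replicates 4 and 5 were again the highest of their group, at 7.33 and 7.29, but wildtype replicate 4 stood above both at 7.58, and the difference was 0.07 (SE 0.18). At the dim 1426600_at the highest mouse was wildtype replicate 2 (5.13) and the difference -0.19 (SE 0.22).

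Bnip3 encodes a mitochondrial protein that marks mitochondria for removal. It read 10.40, 10.58, 10.41, 10.36 and 10.64 in heterozygous mice, against 10.34, 10.05, 10.55, 10.26 and 10.78 in wildtype mice. The heterozygous mice lay inside the wildtype range, and the difference was 0.08 (SE 0.14, 95% interval -0.22 to 0.38). On the linear scale the interval covers 0.859-fold to 1.30-fold, and the exact permutation p was 0.587.

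Ankrd37, an ankyrin repeat gene strongly induced by HIF-1, read 6.12, 5.92, 5.78, 5.90 and 5.98 in heterozygous mice, against 6.03, 5.90, 6.01, 5.87 and 4.64 in wildtype mice. A single mouse, wildtype replicate 5, stood far below the rest, while the other 9 lay between 5.78 and 6.12. The difference of 0.25 (SE 0.24, exact permutation p = 0.579) was -0.01 without that mouse. It was 0.43 with the stromal, 0.55 with the endothelial and 0.10 with the acinar list mean as a covariate. Wildtype replicate 5 also had the highest acinar list mean of the 10 mice, 16.31, and a link to its low Ankrd37 value was not tested.

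Car9, which encodes a cell-surface carbonic anhydrase of pH control and is a widely used hypoxia marker, was dim. It read 4.86, 5.54, 4.89, 5.40 and 4.84 in heterozygous mice, against 5.26, 5.42, 4.23, 4.84 and 4.65 in wildtype mice. Each genotype held mice near 5.4 and mice under 4.9. The difference was 0.23 (SE 0.23, exact permutation p = 0.389), 0.07 without wildtype replicate 3, and 0.47 with the stromal list mean as a covariate.

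Ndrg1, a stress-induced gene whose product is linked to growth arrest and myelin upkeep, had 5 probe sets, all above 4 on every array. At 1456174_x_at, the one with the highest mean, it read 11.78, 12.00, 11.80, 11.83 and 11.87 in heterozygous mice, against 11.82, 11.89, 12.05, 11.66 and 11.98 in wildtype mice. The groups overlapped, with a difference of -0.03 (SE 0.10, 95% interval -0.24 to 0.19). The other 4 differed by -0.06 (SE 0.13) at 1420760_s_at, -0.09 (SE 0.15) at 1450976_at, -0.03 (SE 0.21) at 1423413_at and 0.07 (SE 0.25) at 1450977_s_at. At the first of these the interval reached from -0.34 to 0.21.

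P4ha1 encodes a catalytic subunit of the collagen prolyl hydroxylase, an enzyme that fits collagen for folding. It read 6.94, 6.56, 6.34, 6.84 and 7.50 in heterozygous mice, against 6.87, 6.62, 7.31, 7.09 and 6.86 in wildtype mice. The lowest and the highest mouse were both heterozygous (replicates 3 and 5), and the difference was -0.12 (SE 0.21, exact permutation p = 0.611). Without heterozygous replicate 5 it was -0.28 and without replicate 3 it was 0.01. Its other probe set lay at background, at 2.59 to 2.69 in heterozygous and 2.63 to 3.39 in wildtype mice.

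**Figure D2:**
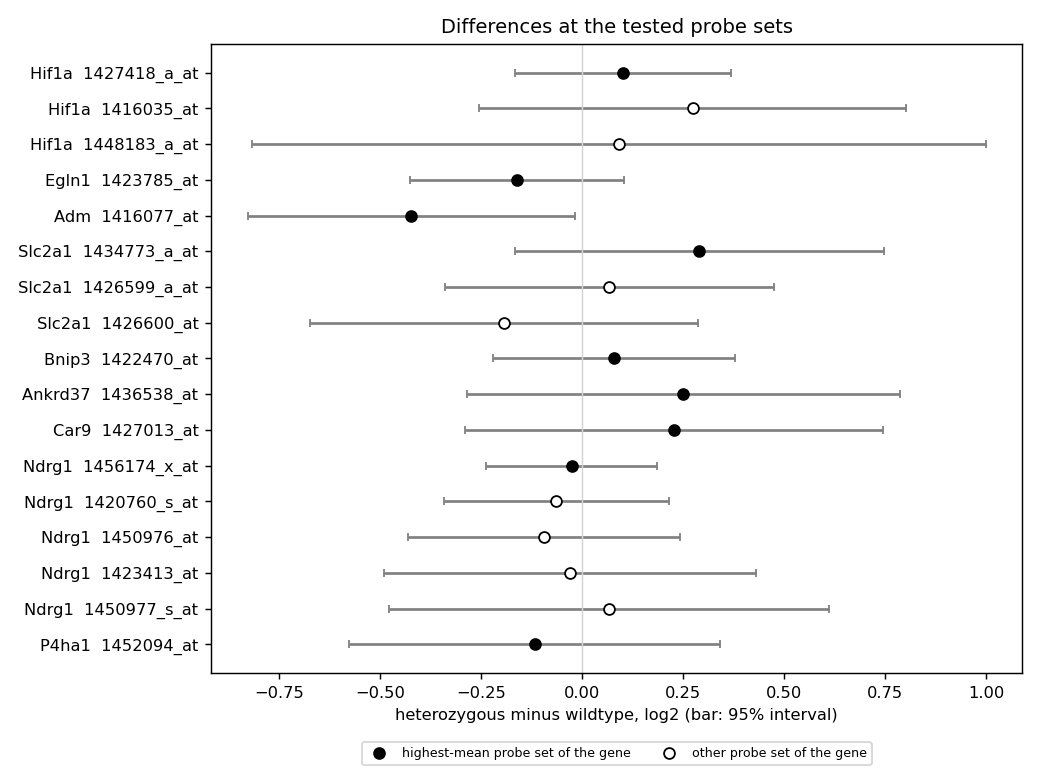
Difference between genotypes (x axis, heterozygous minus wildtype, log2) at the 17 tested probe sets, 1 row each, with 95% intervals from limma as bars. Filled points are the probe set with the highest mean of a gene and open points its others. The interval of Adm, which entered the test through its wildtype values, ends at -0.02, and those of the other 16 cross 0.

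Agreement between probe sets shows how far a value of 1 probe set stands for its gene. For Hif1a the 3 tested probe sets all had a higher mean in heterozygous islets, for Slc2a1 2 of 3 and for Ndrg1 1 of 5. Over the 10 mice, 16 pairs of probe sets of the same gene were compared, and Pearson's r ran from -0.30 to 0.87 with a median of 0.60. After adjustment over the 16 pairs, 1 passed 0.05 by Pearson's r and 7 by Spearman's rho, from permutation tests.

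Of the Ndrg1 probe sets, 1420760_s_at and 1450976_at followed each other most closely, with r = 0.87 (permutation adjusted p = 0.00800) and rho = 0.96 (permutation adjusted p = 0.00112), and r = 0.74 without heterozygous replicate 5 and wildtype replicate 2. Both were highest in wildtype replicate 2, at 11.69 and 9.18. The probe set with the highest mean, 1456174_x_at, did not follow them, with r from -0.30 to 0.25 against the other 4. The suffix _x_at names probe sets with probes that other transcripts may share, so its level is less certain as a measure of Ndrg1. For Slc2a1, 1434773_a_at and 1426599_a_at had r = 0.71 (permutation p = 0.0221, adjusted p = 0.0866) and rho = 0.76 (permutation adjusted p = 0.0328), while 1426600_at had r = -0.01 and -0.14 with them.

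**Figure D3:**
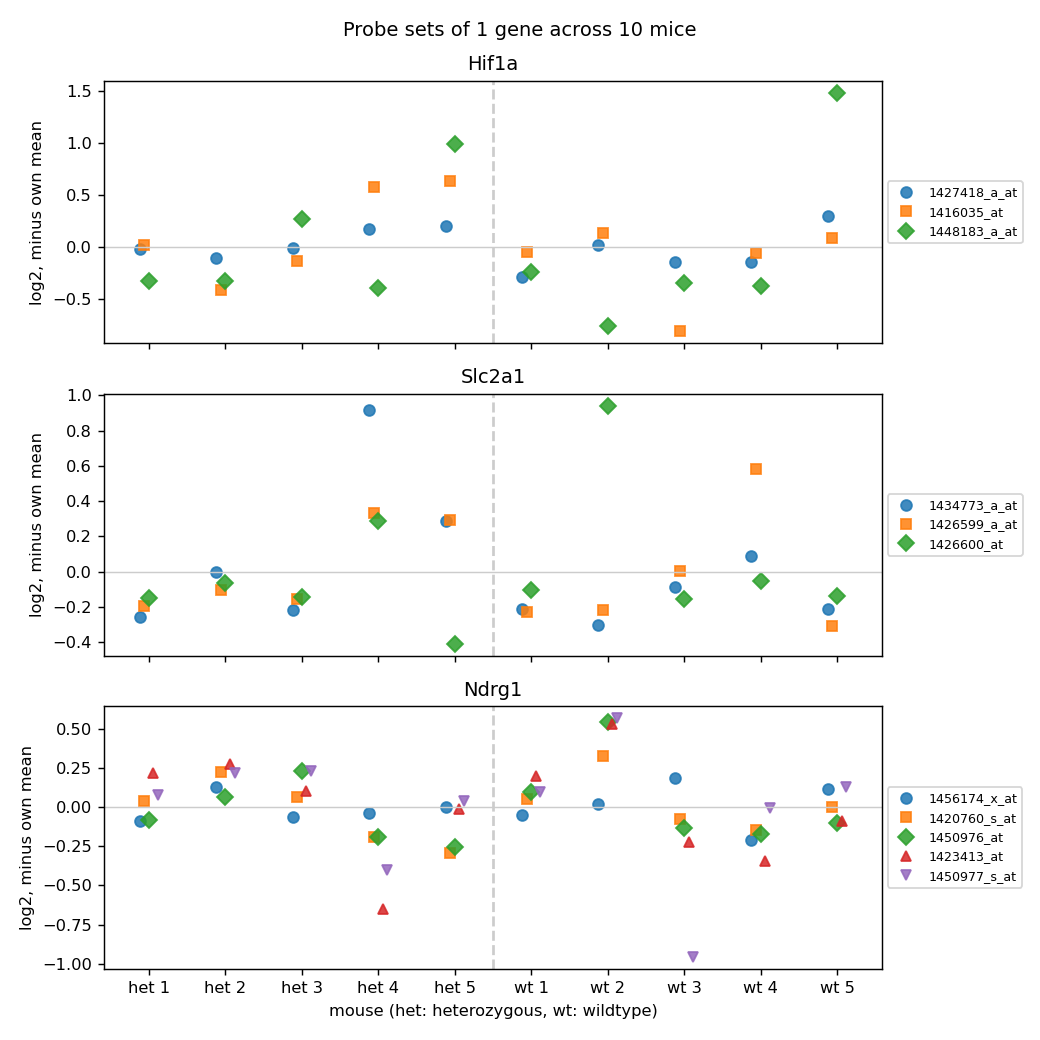
Values of the tested probe sets of Hif1a, Slc2a1 and Ndrg1 in each mouse (x axis), each as log2 expression minus that probe set's mean over the 10 mice (y axis). Symbols are probe sets, and the dashed line parts heterozygous (het) from wildtype (wt) mice. In Hif1a 1448183_a_at, both replicates numbered 5 stand out, and in Ndrg1 1450977_s_at wildtype replicate 3 stands below the rest.

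Genes driven by 1 factor can vary together between animals, so pairs of the 9 genes were compared over the 10 mice at their highest-mean probe sets. Of 36 pairs 21 had a positive and 15 a negative r, with a median of 0.07. After adjustment over the 36 pairs, 0 passed 0.05 by Pearson's r and 0 by Spearman's rho (lowest permutation adjusted p 0.828 and 0.820), and before adjustment 1 and 2 did. By Pearson's r the strongest relation was a negative one, between Egln1 and Car9 (r = -0.68, permutation p = 0.0322, adjusted p = 0.828; rho = -0.60, permutation p = 0.0744, adjusted p = 0.820). It was -0.27 without heterozygous replicate 2 and wildtype replicate 3, so its size depends on them. They are the mice farthest from the Egln1 median, and leaving them out also narrows the range of Egln1. By rank it was Car9 and P4ha1 (rho = -0.70, permutation p = 0.0309, adjusted p = 0.820; r = -0.56). Within genotypes the r of Egln1 and Car9 was -0.83 in heterozygous and -0.51 in wildtype mice.

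Bnip3 and Ndrg1 had the highest positive r, 0.54 (permutation p = 0.103, adjusted p = 0.828), with rho = 0.52 (permutation adjusted p = 0.820) and r = 0.78 without wildtype replicates 2 and 5, the mice farthest from the Bnip3 median. Within genotypes it was 0.70 in heterozygous and 0.56 in wildtype mice. Ndrg1 is taken here at 1456174_x_at, which did not follow the other Ndrg1 probe sets, so the pair may not stand for the gene. Hif1a and Ankrd37 stood at r = -0.60 (permutation p = 0.0545, adjusted p = 0.828) with rho = -0.44 (permutation adjusted p = 0.820). Without wildtype replicates 1 and 5, the mice farthest from the Hif1a median, r was 0.03, so its size depends on them. Within genotypes it was 0.05 in heterozygous and -0.91 in wildtype mice. The 9 genes thus gave no pair whose common variation passed the test in these islets.

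**Figure D4:**
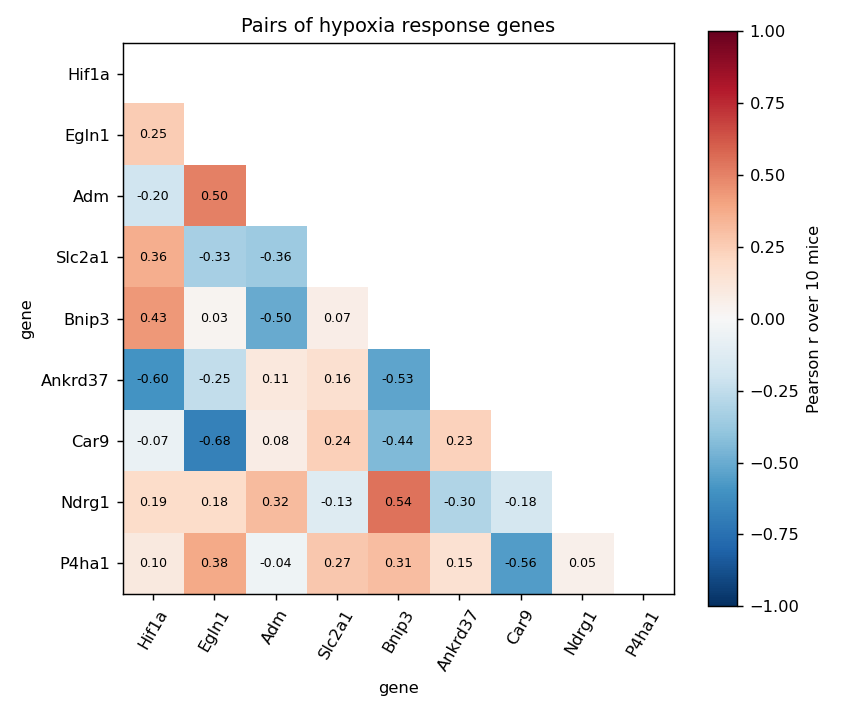
Pearson's r over 10 mice for the 36 pairs of the 9 tested hypoxia response genes (x and y axes), as colour and number. Values run from -0.68 for Egln1 with Car9 to 0.54 for Bnip3 with Ndrg1, and 0 pairs passed 0.05 after adjustment.

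The genes most like each member over the 10 arrays, after genotype means were subtracted, were taken from all genes tested, 3 per member. With so many candidates and 10 arrays a high r is usual, and the values are a description. For Hif1a they were Wasl (r = 0.98), Fam8a1 and Btbd7, and for Egln1 they were B630019K06Rik (0.98), Ttc30b and Hipk3. Adm came nearest to Pex16 (0.95), Rnasek and Sec14l1. Slc2a1 came nearest to Col6a2, a collagen VI chain of stromal cells (0.97), the prostaglandin carrier gene Slco2a1 (0.95) and the tubulin gene Tubb5 (0.95). Bnip3 was most like Inpp4a (0.96), Zfp715 and Stx16, and Ankrd37 most like Ccar2 (0.99), Tmem184b and Adam15. Car9 came nearest to the glycogen phosphorylase gene Pygb (0.91), B4galt1 and Slc22a5, and P4ha1 to Map4k4 (0.98), Myef2 and Cops5. Ndrg1, again at 1456174_x_at, came nearest to Ubxn7 (0.96), Clk2 and Morn4. No member of the hypoxia response set was among the 3 genes nearest to another. With 10538 genes tested that outcome is likely for any small set, and nothing is read from it.

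Other genes of the pathway were taken from 2 lists. Of 18 regulators of HIF 16 were tested, and 7 had a higher and 9 a lower mean in heterozygous islets, with a median of -0.02. Over all 10538 genes tested 54.4% had a higher mean. None passed the adjusted threshold of limma, and 1 had an unadjusted p under 0.05, near the 4.09% of all probe sets that had. That was Epas1, the HIF-2 alpha gene, which is prominent in endothelial cells. It read 10.43, 10.78, 10.35, 11.25 and 10.92 in heterozygous mice, against 10.80, 11.15, 11.30, 11.20 and 11.19 in wildtype mice. Heterozygous replicates 1, 2 and 3 lay below all wildtype mice, while replicates 4 and 5 lay within the wildtype range.

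The Epas1 difference was -0.38 (SE 0.17, unadjusted limma p = 0.0493, adjusted p = 0.9999, exact permutation p = 0.103). With the stromal list mean as a covariate it was -0.04, and with the endothelial list mean -0.09. Elob, a subunit of the von Hippel-Lindau ligase, differed by 0.18 (SE 0.12), the ubiquitin ligase gene Siah2, which acts on prolyl hydroxylases, by -0.17 (SE 0.14), and Os9, whose product binds HIF-1 alpha, by 0.18 (SE 0.15). Vhl, named besides the rule after its values were seen, differed by 0.08 (SE 0.10).

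Of 46 other HIF targets 37 were tested, and 19 had a higher and 18 a lower mean, where 54.4% of all genes had a higher one. Their median was 0.01 and their range from -0.57 to 0.28. None passed, and 0 had an unadjusted limma p under 0.05, where 4.09% of all probe sets did. The 4 with the smallest p were the lipoprotein receptor gene Vldlr, the circadian repressor gene Bhlhe40, the collagen lysyl hydroxylase gene Plod2 and the hexokinase gene Hk1. Vldlr averaged 8.36 ± 0.27 in heterozygous mice and 8.08 ± 0.13 in wildtype mice (0.28, SE 0.13). Its difference was 0.10 without heterozygous replicates 2 and 5, and 0.41 as the mean over its kept probe sets (limma, adjusted p = 1, against an unadjusted value of 0.00116). Bhlhe40 averaged 7.12 ± 0.52 in heterozygous mice and 7.69 ± 0.62 in wildtype mice (-0.57, SE 0.32). Plod2 differed by -0.15 (SE 0.10) and Hk1 by -0.29 (SE 0.21), which turned to 0.10 and 0.12 with the stromal and the endothelial list mean as a covariate. Vegfa, the vessel growth factor gene, was named after its values were seen and differed by 0.18 (SE 0.20). Without wildtype replicate 2 the Vegfa difference was 0.04, without wildtype replicate 3 it was 0.34, and with the stromal list mean as a covariate it was 0.01. As the mean over its kept probe sets it was 0.33.

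**Figure D5:**
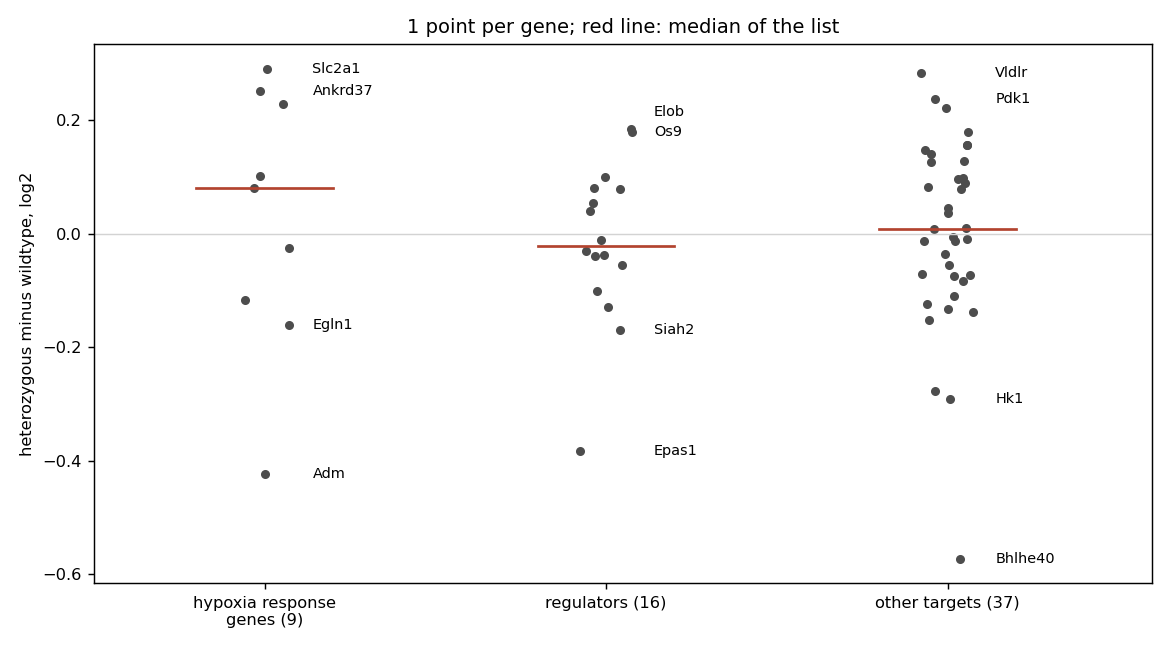
Difference between genotypes (y axis, heterozygous minus wildtype, log2) for the 9 hypoxia response genes, 16 regulators of HIF and 37 other HIF targets (x axis), 1 point per gene at its highest-mean probe set, with list medians as red lines and the 2 genes at each end named. Medians lie at 0.08, -0.02 and 0.01, and no point passed the adjusted test.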

How the data were processed

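Islet RNA of 10 mice was measured on 1 Affymetrix array each. The authors deposited log2 values per probe set and array, which GCRMA produced (per the submitters' processing notes), with no version given in the sources used here. GCRMA adjusts background by probe sequence, normalizes between arrays and summarises probes, which sets dim probe sets near a common floor. The log2 scale was read from the values, from 0.654 to 17.6. Arrays carry no count of molecules, so their number limits the precision.

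Groups came from the sample titles. Probe sets were named through the platform annotation, in which 34958 carry 1 symbol, 932 several and 9211 none here. Of the symbols 34754 matched RefSeq genes of GRCm38.p6 by identifier and 0 changed. After 64 control probe sets were left out, probe sets above 4 on at least 5 arrays were kept, 18567 in all. Genotypes were compared in R 4.3.3 with limma 3.58.1 (lmFit, then eBayes), no covariates, with Benjamini-Hochberg adjustment over all 18567 and two-sided p-values, threshold 0.05. The exact permutation test has a smallest possible p of 0.00794. Correlations used 100000 permutations in numpy 2.4.6. The fit was tested on simulated data. Figures were drawn with matplotlib 3.10.9.

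The genes, lists and tests were chosen with earlier results of these data known. The text names all 10 genes at every probe set, the 4 genes with the smallest p of each pathway list, 3 like genes per member, and Men1. Marker lists of beta, alpha, stromal, endothelial, acinar, duct, lymphoid and myeloid cells were averaged per array. Alternatives covered the filter, normalization, variance prior, array weights, replicate block, covariates, mice left out, probe sets per gene and threshold.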

Additional observations from a re-analysis of the deposited data

Results flagged for a closer look

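Within a genotype, the highest or lowest of 5 mice was held to stand apart if its gap to the next mouse divided by the group's range was above Dixon's 95% critical value. Of 36 groups checked, 17 hypoxia response probe sets and that of Men1 in both genotypes, 4 held such a mouse, where chance gives about 5%. All 4 were wildtype groups. Ankrd37 in wildtype replicate 5 stood at 4.64, with the next mouse at 5.87. Hif1a at 1448183_a_at stood at 5.81 in the same mouse, with the next at 4.10. Hif1a at 1416035_at was lowest in wildtype replicate 3 at 6.54, with the next at 7.29. Slc2a1 at the dim 1426600_at was highest in wildtype replicate 2 at 5.13, with the next at 4.13, and its other 2 probe sets were not high there.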

How the results depend on the processing

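The count of hypoxia response probe sets past an adjusted limma p of 0.05 was 0 under every alternative run, as was that over all probe sets, at an adjusted p of 0.10 too, and 0 of 36 gene pairs passed in all 3 settings. The directions of Hif1a, Egln1, Slc2a1 and Car9 held in every alternative run, where Slc2a1 ranged from 0.05 to 0.73. Adm ranged from -0.55 to -0.22, but it entered the test through its wildtype values, so nothing is read from its constant direction. Adm and Car9 had no value with the filter at 5, which removed them. Directions turned for the 7 genes named next, Hk1 and Ankrd37 among them, and the causes were not tested. With the stromal mean as a covariate Bnip3 stood at -0.0439 and Hk1 at 0.10, and with the endothelial mean Ndrg1 stood at 0.0202, P4ha1 at 0.16 and Hk1 at 0.12. With the gap between 3' and 5' control probe sets, a sign of RNA length, as a covariate P4ha1 stood at 0.0402. Without heterozygous mice 2 and 5, which earlier results showed high in lymphocyte markers, Bnip3 stood at -0.00909, and with all kept probe sets averaged Siah2 stood at 0.0573. Leaving out 1 mouse at a time gave -0.00598 to 0.18 for Bnip3, -0.0131 to 0.34 for Ankrd37, -0.0811 to 0.0168 for Ndrg1, -0.28 to 0.00690 for P4ha1 and -0.00013 to 0.12 for Vhl. With the replicate number as a block 0 of 17 probe sets passed and Adm stood at -0.42 (limma, adjusted p = 1, against an unadjusted value of 0.0592). Same-numbered mice correlated at -0.28 to 0.11 in their deviations from genotype means, and 1 of 5 matched its own number best. So few mice cannot settle whether the numbers mark a pairing. The median 95% interval over all probe sets reached 0.33 to either side, and Egln3 and the dim probe sets of Adm, Hif1a and Slc2a1 lie where the background adjustment limits what can be read.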
